A study of Mus musculus with 149 samples.

Results

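Tnfaip6 was followed in mouse lung across 20 groups of animals, naive or sensitized with ovalbumin (OVA) and challenged with thymic stromal lymphopoietin (TSLP). The gene was read by 1 probe set, 1418424_at, the only one of 26166 whose platform annotation names Tnfaip6 alone, and it stands as 1 of 13494 genes tested. The gene was selected on its measured rise over buffer after 1500 ng TSLP in OVA-sensitized mice at 6 h, so every Tnfaip6 comparison that contains arrays of either of those 2 groups is given below as a description, without a test.

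Lungs came from BALB/c mice, an inbred strain, with 1 Affymetrix array per animal. At each of 6 and 24 h after challenge, the groups were OVA-sensitized mice given TSLP at 150, 500 or 1500 ng, OVA-sensitized mice given buffer or saline, and naive mice given the same 5 challenges. The buffer is labelled 0.1% MSA, an abbreviation the labels do not expand. The labels name no mutant allele, and neither the animals' age and sex nor the route of challenge appears in them. The design allots 8 animals to each combination, and 6 to 8 arrays per group were analysed here. Animal numbers in the labels identify separate animals, so the p-values rest on the spread between animals. In limma that spread is pooled over all 20 groups, whose Tnfaip6 SDs ran from 0.20 to 0.65 log2 units.

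Tnfaip6 encodes TSG-6, a secreted protein that binds hyaluronan through a Link module and also carries a CUB domain. It moves the heavy chains of inter-alpha-inhibitor onto hyaluronan, a long sugar polymer of the extracellular matrix, and it is known as a gene induced by TNF and IL1 in fibroblasts, smooth muscle and other stromal cells. Hyaluronan is made by the synthases Has1, Has2 and Has3, is bound on cells by Cd44, and is held in matrices by the proteoglycan versican, the product of Vcan. TSLP is an epithelial cytokine whose receptor, made of Crlf2 and Il7r, signals largely through STAT5.

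The proximal promoter of Tnfaip6 is shown because AP-1 and C/EBP sites are known in the human promoter for induction by TNF and IL1, and because STAT5 lies downstream of the TSLP receptor. The 250 bases before the RefSeq start lie on the plus strand at chr2:52037863-52038112 of GRCm38.p6. Capitals mark, from 5′ to 3′, the matches to TTCNNNGAA (the STAT5 spacing), ATGCAAAT (the octamer) joined to TGANTCA (AP-1), and TTNNGNAA (C/EBP).
Tnfaip6 promoter: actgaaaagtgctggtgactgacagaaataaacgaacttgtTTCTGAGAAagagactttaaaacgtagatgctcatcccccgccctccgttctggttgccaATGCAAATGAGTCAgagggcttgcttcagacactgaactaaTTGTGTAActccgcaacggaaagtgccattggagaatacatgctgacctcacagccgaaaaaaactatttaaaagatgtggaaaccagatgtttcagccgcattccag

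Both strands were searched. TTCTGAGAA spans 209 to 201 bases before the start, and 7.01% of 32817 RefSeq promoter windows of this length hold TTCNNNGAA. The AP-1 match TGAGTCA spans 142 to 136 bases before the start, a motif in 6.75% of windows, and shares its first base with the octamer, which ends 142 bases before the start and is in 1.6% of windows. TTGTGTAA spans 108 to 101 bases before the start, and its loose C/EBP motif is in 36.8% of windows. A TATA-like TATTTAA lies 43 to 37 bases before the start (4.18% of windows). No match was found in these letters for the STAT6 spacing, TTC and GAA with 4 bases between (5.85% of windows), or for an NF-kB form, GGGA and CC with 4 bases between (17.6%). A match is a run of letters and was not tested as a binding site. The motifs were chosen after the promoter was seen, so the shares of windows do not measure how unusual this promoter is.

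The arrays were comparable in scale, with array medians of 8.97 to 9.16 log2 units, and no pair held identical values. Lung epithelial markers, 7 of 7 measured, averaged 12.87 to 13.29 log2 units over the arrays labelled lung. In 6 arrays the gullet keratins Krt4 and Krt13 stood far above their medians: Krt13 was at least 10.4 log2 units there and at most 6.06 in the others. These were replicate 7 of OVA 1500 ng at 6 h, replicate 7 of OVA buffer at 6 h, replicate 5 of naive 150 ng at 6 h, replicates 4 and 6 of naive buffer at 6 h, and replicate 8 of naive buffer at 24 h. The beta-actin 3′ minus 5′ difference, which grows when RNA is degraded or poorly labelled towards its 5′ end, varied among groups and moved with TSLP at 6 h. Every Tnfaip6 comparison was therefore fitted both without and with that difference as a covariate. Over all arrays the Tnfaip6 signal lay between 5.18 and 8.83 log2 units, and group membership accounted for 68.7% of its variance. That signal was low: its mean was 6.56 log2 units, and 7.2% of genes had a lower mean. Whether the lowest levels stand above background was not tested.

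In OVA-sensitized lungs at 6 h the mean Tnfaip6 level stood in the order of the TSLP dose. At 24 h the mean of every OVA-sensitized group lay between 6.91 and 7.45 log2 units, and naive means lay between 5.80 and 6.33 over both times. In OVA-sensitized mice at 6 h the level averaged 6.45 ± 0.47 log2 units after saline, 6.14 ± 0.47 after buffer, 7.04 ± 0.61 after 150 ng, 7.42 ± 0.58 after 500 ng and 7.98 ± 0.62 after 1500 ng (SD, n = 8, or 7 at 150 ng). With the groups set to the same beta-actin difference, those means were 6.60, 6.31, 7.16, 7.45 and 7.90. The beta-actin difference averaged 1.26 at 1500 ng and 2.57 after buffer, and the ranges of those 2 groups do not overlap. The range at 500 ng does not overlap that of buffer either. The adjusted means of these groups therefore rest on extending a fitted slope beyond shared values, and cannot separate dose from RNA quality. Because whole lung was measured, a change in the number of cells that make Tnfaip6 and a change in RNA per cell cannot be told apart.

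**Figure D1:**
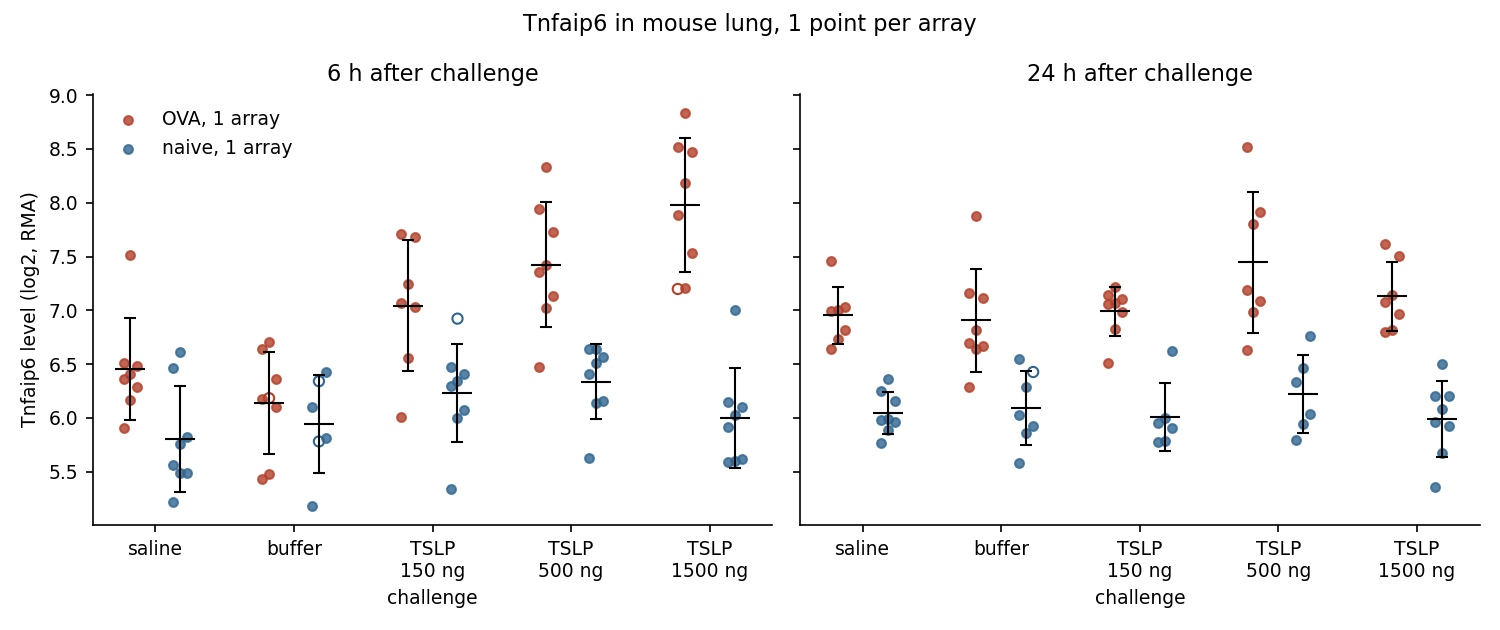
Tnfaip6 level (log2 RMA signal, vertical axis) in each array, by challenge (horizontal axis), sensitization and time. Each circle is 1 array, open where gullet keratins were present, and the bars are the group mean ± SD. The OVA 1500 ng group at 6 h averages 7.98, the highest of the 20 groups, and the naive saline group at 6 h averages 5.80, the lowest.

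In naive mice at 6 h the level averaged 5.80 ± 0.49 log2 units after saline (n = 8), 5.94 ± 0.46 after buffer (n = 6), 6.23 ± 0.46 after 150 ng, 6.33 ± 0.35 after 500 ng and 6.0002 ± 0.47 after 1500 ng (SD, n = 8 each). In OVA-sensitized mice at 24 h it averaged 6.95 ± 0.27 after saline (n = 7), 6.91 ± 0.48 after buffer (n = 8), 6.99 ± 0.23 after 150 ng (n = 8), 7.45 ± 0.65 after 500 ng and 7.13 ± 0.32 after 1500 ng (SD, n = 7 each). In naive mice at 24 h it averaged 6.04 ± 0.20 after saline (n = 8), 6.09 ± 0.34 after buffer (n = 7), 6.01 ± 0.31 after 150 ng (n = 6), 6.22 ± 0.36 after 500 ng (n = 6) and 5.99 ± 0.35 after 1500 ng (SD, n = 8). The OVA means at 24 h all lie above the naive means of both times.

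The spread between animals was wide. At 1500 ng in OVA-sensitized mice at 6 h the lowest, median and highest arrays were 7.20, 8.03 and 8.83 log2 units, against 5.43, 6.18 and 6.71 in OVA buffer mice at 6 h. Those 2 groups do not overlap. At 500 ng they were 6.47, 7.39 and 8.33, and at 150 ng 6.00, 7.07 and 7.71, so both lower doses overlap the buffer group. The residual SD of Tnfaip6 within groups was 0.445 log2 units, above that of 96.3% of genes, where the median gene had 0.160.

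Each dose was compared with saline and with buffer, in sensitized and in naive lungs. A difference is said to pass where its limma p, adjusted over all genes, is under 0.05. In OVA-sensitized mice at 6 h, Tnfaip6 was higher after 500 ng than after saline by 0.97 log2 units (SE 0.22, 1.96-fold, adjusted p = 1.97e-04), where 19.2% of genes rose. With the beta-actin covariate the difference was 0.84 (adjusted p = 0.0143), where 6.34% of genes rose. The beta-actin difference ran from 1.22 to 2.22 in that 500 ng group and from 2.18 to 2.72 after saline. Those ranges hardly meet, so the covariate fit cannot separate dose from RNA quality here either. At 150 ng the difference from saline was 0.59, which did not pass (adjusted p = 0.135). At 1500 ng it was 1.52, as a description, and the 2 groups overlap through 1 saline animal at 7.52.

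Against buffer in the same mice the differences were larger, and they are described only, since the choice of the gene favours a low level in those buffer arrays. The 500 ng group was higher by 1.29 log2 units (SE 0.22, 2.44-fold), with 8 of 8 arrays above the buffer mean, or 1.14 (SE 0.25) with the covariate. In that comparison 19% of genes rose, and 4.77% with the covariate. The 150 ng group was higher by 0.91 (SE 0.23, 1.87-fold, 6 of 7 arrays), or 0.85 with the covariate, where 0.133% of genes rose without it. At 1500 ng the difference that chose the gene was 1.84 (SE 0.22, 3.59-fold), and 1.59 (SE 0.30, 3.01-fold) with the covariate. In that contrast 24.8% of genes rose and 35.9% fell without the covariate, and 2.65% rose and 5.07% fell with it.

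Among the 13494 genes ordered by their rise over buffer, Tnfaip6 stood 15th at 150 ng, 13th at 500 ng and 10th at 1500 ng, and 20th, 13th and 10th with the covariate. The 1500 ng rank follows from how the gene was chosen, and the 3 doses share the same buffer arrays, so these ranks are a description. The slope over the 3 TSLP doses was 0.93 log2 units per 10-fold dose (SE 0.23), or 0.74 (SE 0.28) with the covariate, as a description. Without replicate 7 of the 1500 ng group, the array with gullet keratins and the lowest of its group at 7.20, the difference from buffer was 1.96. Buffer minus saline itself was -0.32 in OVA-sensitized mice at 6 h (SE 0.22), again a description. None of the other 3 buffer comparisons with saline passed in limma, with 0 at an unadjusted p below 0.05.

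**Figure D2:**
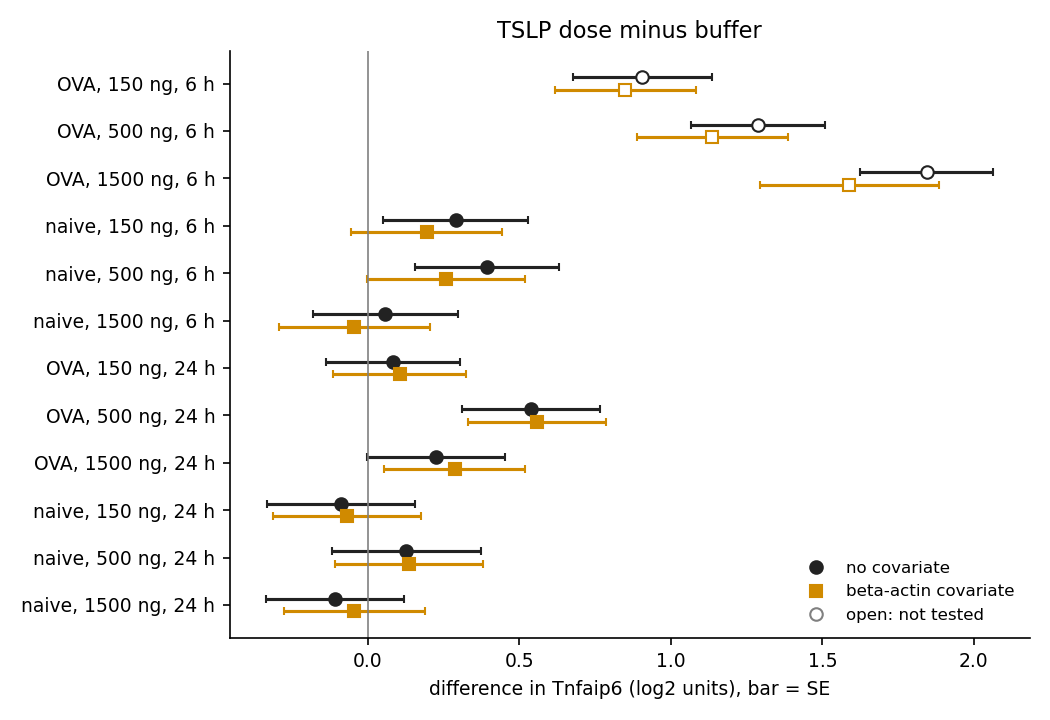
Tnfaip6 difference from buffer (log2 units, horizontal axis) at 150, 500 and 1500 ng TSLP in OVA-sensitized and naive mice at 6 and 24 h (vertical axis), without and with the beta-actin covariate. Points are fitted differences, open where not tested, and bars are ± 1 SE. At 6 h in OVA-sensitized mice the values are 0.91, 1.29 and 1.84 without the covariate, and 0.85, 1.14 and 1.59 with it.

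Naive mice did not show a rise over buffer that passed. At 6 h the differences from buffer were 0.29, 0.39 and 0.06 log2 units at 150, 500 and 1500 ng (SE 0.24 each), with limma adjusted p of 0.376, 0.177 and 0.897, where 11%, 15.8% and 5.53% of genes rose. At 500 ng the lowest, median and highest arrays were 5.62, 6.46 and 6.64 log2 units, against 5.18, 5.96 and 6.43 after buffer. The ranges overlap, with the 500 ng median just above the highest buffer array. Against saline, 500 ng in naive mice at 6 h was higher by 0.53 (adjusted p = 0.0308, with 23.5% of genes up), a call that did not hold with the covariate (0.34, adjusted p = 0.377).

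Whether TSLP acted differently on Tnfaip6 in OVA-sensitized and naive mice was taken as the difference between the 2 effects. With saline as reference at 6 h, the OVA effect exceeded the naive effect by 0.44 log2 units at 500 ng (limma adjusted p = 0.519). At 150 ng it did so by 0.16 (limma adjusted p = 0.807), and neither passed. With buffer as reference the OVA effect was larger by 0.62, 0.89 and 1.79 at 150, 500 and 1500 ng, as a description. With the covariate these values were 0.66, 0.88 and 1.63. At 24 h none of the 3 differences between effects with buffer as reference passed in limma, and 0 had an unadjusted p below 0.05.

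At 24 h no dose differed from buffer by the test. In OVA-sensitized mice the differences were 0.08, 0.54 and 0.23 log2 units at 150, 500 and 1500 ng, with adjusted p of 0.845, 0.0982 and 0.458. The 500 ng group was the widest of all, with lowest, median and highest arrays of 6.63, 7.19 and 8.52 log2 units, against 6.28, 6.76 and 7.87 after buffer. In naive mice at 24 h the 3 differences were -0.09, 0.13 and -0.11. The share of genes that rose at 24 h was 7.2%, 7.43% and 21% in OVA-sensitized mice at the 3 doses. In naive mice it was 0.0889% at 150 ng, 0% at 500 ng (limma, where 637 genes had an unadjusted p below 0.05) and 0.608% at 1500 ng.

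Beta-actin moved with these comparisons. At 6 h its 3′ minus 5′ difference was lower than in buffer at every TSLP dose in both OVA-sensitized and naive mice. In OVA-sensitized mice the changes were -0.29, -0.78 and -1.31 log2 units at 150, 500 and 1500 ng (exact permutation tests, adjusted p = 0.0392, 6.22e-04 and 6.22e-04 over 12 comparisons). In naive mice they were -0.49, -0.70 and -0.53 (adjusted p = 0.0320, 0.00300 and 0.0176). At 24 h after 1500 ng it was higher than in buffer, by 0.32 in OVA-sensitized mice (exact permutation test, adjusted p = 6.22e-04) and by 0.32 in naive mice (adjusted p = 0.0365), while the other 4 changes at 24 h, of 0.05 to 0.11, did not pass. Without the gullet arrays the OVA 150 ng change at 6 h and the naive 1500 ng change at 24 h did not pass either (exact permutation tests, adjusted p = 0.0539 and 0.0669). In naive mice at 6 h the Tnfaip6 differences from buffer were 0.06 to 0.39 log2 units. Across the deviations of all arrays from their group means, the correlation of Tnfaip6 with beta-actin was r = -0.11, and across the 20 group means r = -0.26, points that share the RNA preparation and the array. The fitted slope was -0.19 log2 units of Tnfaip6 per log2 unit of beta-actin difference (SE 0.15). In OVA-sensitized mice at 6 h, every beta-actin value at 500 and 1500 ng lay below every buffer value. The covariate fit extends this slope across that gap, so it cannot separate dose from RNA quality in those comparisons. What part RNA quality had in the OVA differences beyond this linear term was not tested.

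**Figure D3:**
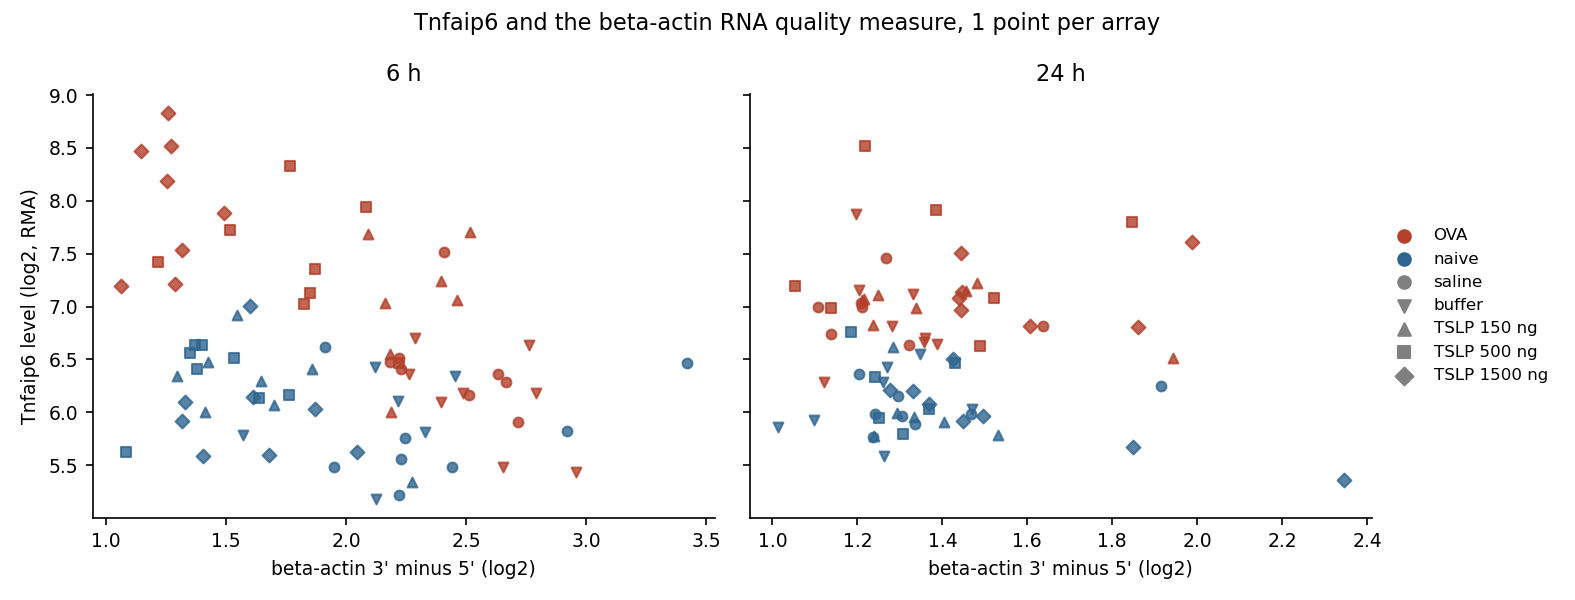
Tnfaip6 level (log2 RMA signal, vertical axis) against the beta-actin 3′ minus 5′ difference (log2 units, horizontal axis), 1 point per array, with 6 h and 24 h in separate panels, colours for sensitization and symbols for the challenge. At 6 h the OVA 1500 ng arrays average 1.26 on the horizontal axis and the OVA buffer arrays 2.57.

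Sensitization was the other factor. Tnfaip6 was higher in OVA-sensitized than in naive lungs in 8 of the 8 tested challenge and time combinations, both without and with the covariate. Buffer and 1500 ng at 6 h were not tested. The share of all genes that rose in these comparisons is given beside each; with the covariate it was 12%, 11.4% and 12.4% at 6 h after saline, 150 ng and 500 ng, and 15.3%, 5.62%, 18.4%, 17.5% and 20.6% at 24 h after the 5 challenges in the same order, 1500 ng last. After saline at 24 h the OVA-sensitized mice had 6.64, 6.996 and 7.46 log2 units as lowest, median and highest, against 5.76, 5.99 and 6.36 in naive mice. Those groups do not overlap, and the difference was 0.91 (SE 0.23, 1.88-fold, adjusted p = 9.15e-04, where 14% of genes rose). After buffer at 24 h it was 0.81 (SE 0.23, adjusted p = 0.0132, where 5.03% of genes rose), with 8 of 8 OVA arrays above the naive mean.

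After TSLP at 24 h the differences between OVA-sensitized and naive mice were 0.98, 1.22 and 1.14 log2 units at 150, 500 and 1500 ng (adjusted p = 5.86e-04, 4.28e-05 and 1.77e-05). Genes that rose were 17.2%, 16.8% and 19.7% of all in these comparisons. The 1500 ng groups do not overlap, with lowest, median and highest arrays of 6.80, 7.08 and 7.62 in OVA-sensitized mice, against 5.36, 6.02 and 6.50 in naive mice. These differences moved by at most a few hundredths with the covariate, for example to 1.15 at 1500 ng.

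At 6 h the sensitization difference was 0.65 log2 units after saline (SE 0.22, adjusted p = 0.0210, where 10.9% of genes rose) and, as a description, 0.19 after buffer (SE 0.24, where 15.7% rose). The saline call was lost without OVA saline replicate 4 (difference 0.50, adjusted p = 0.0968) or naive saline replicate 4 (0.57). At 150 and 500 ng the differences were 0.81 (adjusted p = 0.00215, where 23.6% rose) and 1.09 (adjusted p = 8.39e-05, where 18.3% rose). At 1500 ng the difference was 1.98 without a test, where 17.1% of genes rose, and the 2 groups do not overlap. The 24 h buffer call was lost without OVA buffer replicate 4, the highest at 7.87 (0.67, adjusted p = 0.0697).

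**Figure D4:**
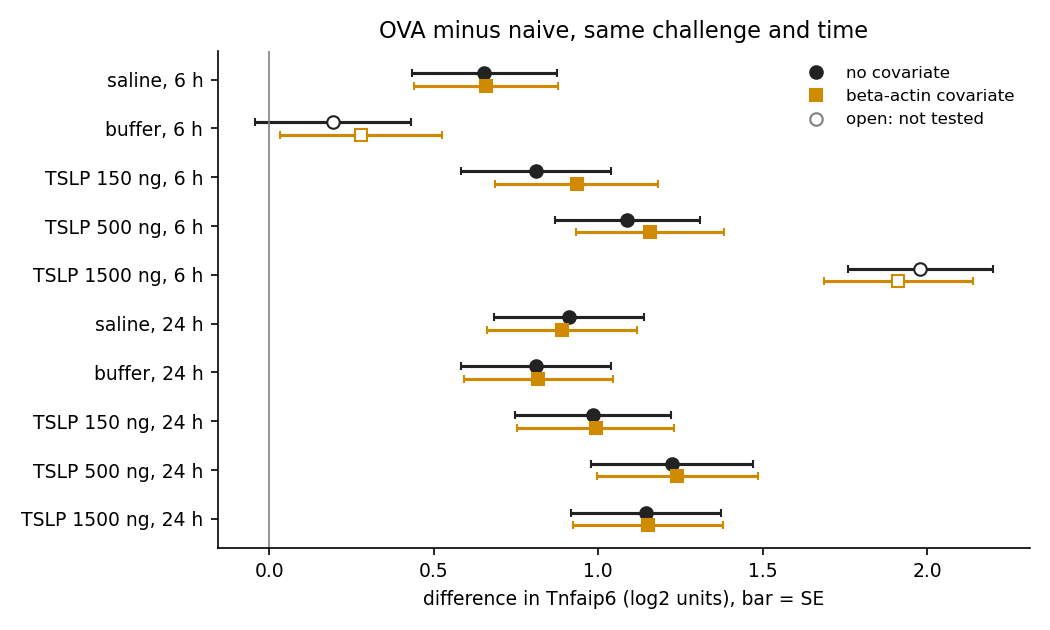
Tnfaip6 difference, OVA-sensitized minus naive mice (log2 units, horizontal axis), for each challenge at 6 and 24 h (vertical axis), without and with the beta-actin covariate. Points are fitted differences, open where not tested, and bars are ± 1 SE. At 24 h the 5 values without the covariate lie between 0.81 and 1.22, and at 6 h between 0.19 after buffer and 1.98 after 1500 ng.

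Macrophage and monocyte markers moved with sensitization too. Of the 6 measured, 5 rose in OVA-sensitized over naive saline mice at 24 h, where 14% of all genes rose, and 4 over naive buffer mice, where 5.03% did. Their mean level per array was 11.27 to 11.70 log2 units in OVA buffer mice, against 10.79 to 11.21 in naive buffer mice. Fibroblast markers were mixed, with 1 of 8 higher and 2 lower after saline, and 2 higher after buffer. Of the 5 smooth muscle markers, 3 rose after saline and 1 after buffer. Of all genes 14% rose and 16.4% fell after saline, and 5.03% and 3.53% after buffer. Their part in the Tnfaip6 difference was not tested.

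In OVA-sensitized mice given saline, Tnfaip6 was higher at 24 h than at 6 h by 0.50 log2 units (SE 0.23, adjusted p = 0.0496, where 25.3% of genes rose), and with the covariate the difference of 0.27 did not pass (adjusted p = 0.523). After buffer it was 0.77 (SE 0.22), or 0.52 with the covariate, as a description. The saline call without the covariate held in 3 of the 15 fits that each left out 1 array. The beta-actin difference averaged 1.27 at 24 h and 2.45 at 6 h in OVA saline mice, and 1.28 and 2.57 in OVA buffer mice. In neither do its ranges at 6 and 24 h overlap, so the covariate cannot separate time from RNA quality there. At 1500 ng in OVA-sensitized mice the 24 h level was below the 6 h level by 0.85, or 0.78 with the covariate, as a description. No other tested comparison between the times passed.

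Ordered by mean, every OVA-sensitized group but 1 stood above every naive group. The exception, OVA buffer at 6 h, lay below 3 naive groups. No gap between neighbours in that order exceeded the larger of their SDs, and all neighbouring ranges overlap. The largest gap, 0.53 log2 units, lay between OVA 1500 ng at 6 h and OVA 500 ng at 24 h, and the lowest mean was that of naive saline at 6 h.

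Genes of hyaluronan biology were read as a list of 39, of which 32 were measured besides Tnfaip6. After 1500 ng in OVA-sensitized mice at 6 h, 7 rose and 10 fell, beside 24.8% and 35.9% of all genes, with a median of -0.08 log2 units against -0.06 over all genes. With the covariate 4 rose and 1 fell, beside 2.65% and 5.07% of all genes. The list was chosen with earlier results of these data known, so the counts describe it. This contrast and its buffer arrays also chose Tnfaip6. The p-values of list members against that buffer group are therefore given below as a description.

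Among synthases, Has2, whose product makes long hyaluronan chains, had 6.59 ± 0.42 log2 units after 1500 ng and 5.61 ± 0.14 after buffer at 6 h in OVA-sensitized mice (SD, n = 8 each). The groups do not overlap, with 6.19 as the lowest 1500 ng array and 5.79 as the highest buffer array. It was higher by 0.98 (SE 0.17, adjusted p = 2.87e-07), and by 0.96 with the covariate (adjusted p = 0.00576). The Has2 mean after buffer lay below the low Tnfaip6 mean of 6.56 over all arrays. Whether that Has2 level stands above background was not tested. Has1 differed by 0.09 (adjusted p = 0.492). Has3 fell by 0.73 (adjusted p = 1.31e-04), a call not kept with the covariate (-0.39, adjusted p = 0.282).

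Among binding proteins and the matrix, Vcan averaged 10.07 ± 0.44 log2 units after 1500 ng and 9.06 ± 0.30 after buffer at 6 h in OVA-sensitized mice (SD, n = 8 each). It rose by 1.02 (SE 0.17, adjusted p = 1.85e-07), and by 0.85 with the covariate (adjusted p = 0.0150). Within each of those groups Vcan followed Tnfaip6 (r = 0.95), so the choice of Tnfaip6 on these arrays bears on Vcan too. Tlr4, a receptor of innate immunity for which hyaluronan fragments are proposed ligands, rose by 0.54 (adjusted p = 1.97e-09), or 0.37 with the covariate (adjusted p = 0.0171). Stab1, a scavenger receptor, fell by 0.31 (adjusted p = 5.17e-05), or by 0.30 with the covariate (adjusted p = 0.0351). Tlr4 and Stab1 are named because they passed here both without and with the covariate, so their p-values are a description. Cd44, the main cell-surface receptor, rose by 0.89 (adjusted p = 2.69e-10) without the covariate, and its difference of 0.25 with it did not pass (adjusted p = 0.255). Ptx3, a pentraxin that binds TSG-6, rose by 0.88 (adjusted p = 9.11e-04) without the covariate, and its difference of 0.77 with it did not pass (adjusted p = 0.124). At 500 ng, Has2 rose by 0.65 (adjusted p = 0.00108, and 0.0252 with the covariate) and Vcan by 1.07 (adjusted p = 4.27e-07, and 6.43e-04 with it). The 500 ng values use the same buffer arrays, so they are a description too.

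**Figure D5:**
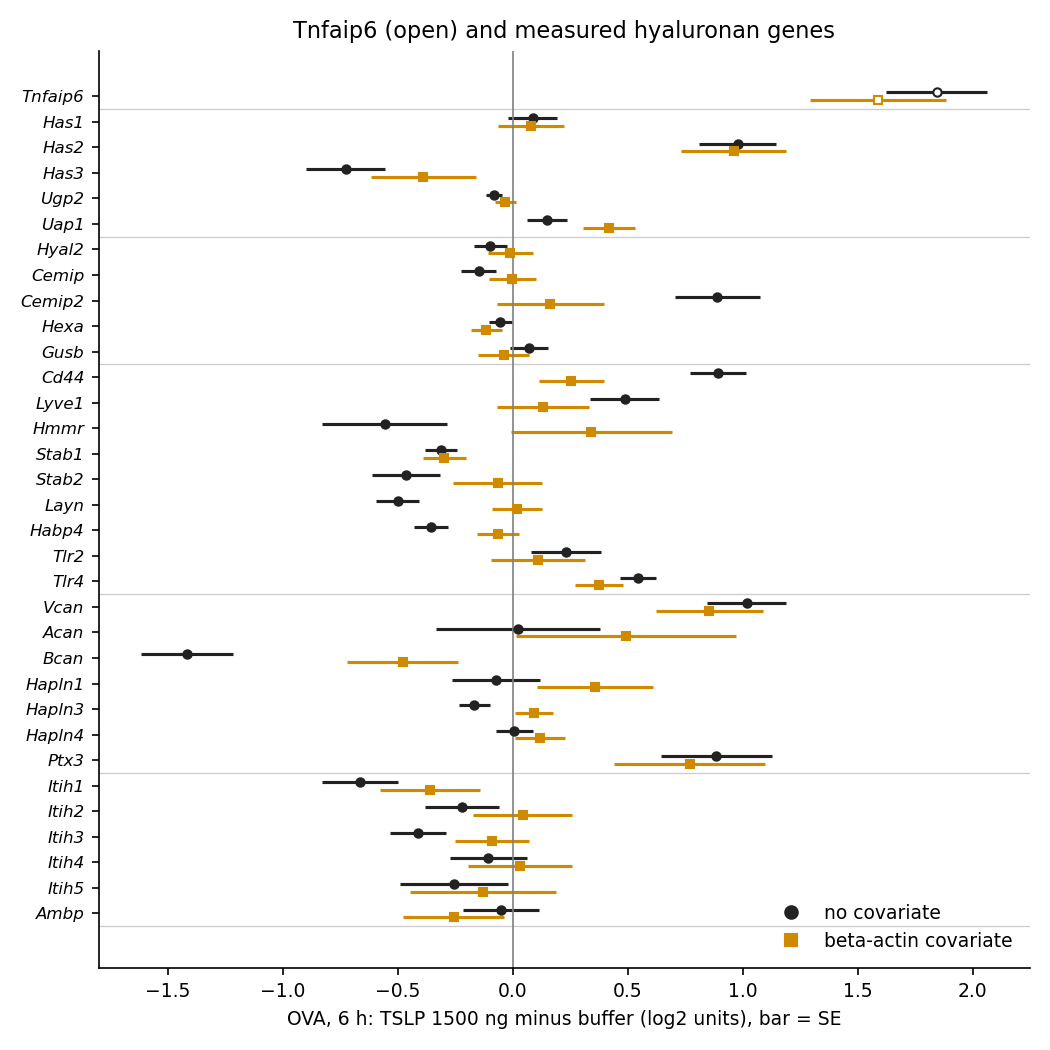
Difference between 1500 ng TSLP and buffer at 6 h in OVA-sensitized mice (log2 units, horizontal axis) for Tnfaip6 and measured genes of hyaluronan biology (vertical axis), without and with the beta-actin covariate. Points are fitted differences, open for Tnfaip6, which was not tested here, and bars are ± 1 SE. Tnfaip6 has the highest value at 1.84 without the covariate, followed by Vcan at 1.02 and Has2 at 0.98.

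At 24 h the hyaluronan genes that passed after 1500 ng in OVA-sensitized mice were Has3 (0.46), Habp4 (0.37), Bcan (0.55) and Itih1 (0.69) upwards, and Ugp2 (-0.13), Cd44 (-0.39) and Tlr2 (-0.46) downwards, with adjusted p between 5.51e-05 and 0.0325. Itih1 encodes a heavy chain of inter-alpha-inhibitor, the substrate of TSG-6, Bcan encodes a brain proteoglycan of the versican family, and Ugp2 makes a sugar nucleotide upstream of hyaluronan. Tlr2 is an innate receptor. Habp4, Bcan, Itih1, Ugp2 and Tlr2 are named because they passed here, so their p-values are a description. In that comparison 21% of all genes rose and 17.5% fell. With the covariate 2 of the list rose and 3 fell, where 17.2% and 15.5% of all genes did. Neither Has3 nor Bcan passed upwards with it. Among receptors and binding proteins 1 fell with it, where 2, Cd44 and Tlr2, fell without it. In naive mice none of the 32 passed in limma at 6 or 24 h without the covariate, and 4 had an unadjusted p below 0.05 at each time, beside 5.53% upwards and 9.82% downwards of all genes at 6 h, and 0.608% and 0.371% at 24 h. With the covariate 1 passed at 6 h, where 2.46% of all genes rose, Hapln3, a link protein (0.25, adjusted p = 0.0454).

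With sensitization at 24 h, 13 of the 32 rose and 1 fell after saline, and 9 rose and none fell after buffer (limma, 11 at an unadjusted p below 0.05; of all genes 14% rose and 16.4% fell after saline, and 5.03% and 3.53% after buffer). Vcan was higher in OVA-sensitized mice by 1.27 after saline (SE 0.18, adjusted p = 7.20e-09) and 0.71 after buffer (adjusted p = 0.00513). Has2 was higher by 0.81 after saline (adjusted p = 1.06e-04), while after buffer its difference of 0.33 did not pass (adjusted p = 0.239). Has3 was higher by 1.05 after saline (adjusted p = 9.32e-07) and 0.66 after buffer (adjusted p = 0.00960).

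Of 16 measured genes for TNF and IL1 ligands, receptors and targets, 11 rose after 1500 ng in OVA-sensitized mice at 6 h, where 24.8% of all genes rose, and 2 rose with the covariate, where 2.65% of all did. Il1r1, the signalling receptor for IL1, rose by 1.11 (adjusted p = 2.57e-11, and 0.00551 with the covariate at 0.79). Vcam1, an adhesion molecule of activated endothelium, rose by 0.89 (adjusted p = 7.89e-09, and 0.0122 with the covariate at 0.68). Il1r1 and Vcam1 are named because they passed here both without and with the covariate, so their p-values are a description. Tnf itself differed by 0.18 (adjusted p = 0.453). At 500 ng 11 of the 16 rose, where 19% of all genes did, and 9 rose with the covariate, where 4.77% of all did. Of 7 measured genes of the ovarian cumulus matrix and prostaglandin synthesis, where Tnfaip6 is also known, 3 rose and 1 fell at 1500 ng, where 24.8% of all genes rose and 35.9% fell, and with the covariate only Has2 of the 7 passed, where 2.65% of all rose and 5.07% fell.

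Markers of stromal and vascular cells moved in the same contrast. Of the measured markers, 5 of 8 for fibroblasts, 3 of 5 for smooth muscle and 5 of 6 for endothelium rose, and 4 of 5 for mesothelium fell, where 24.8% of all genes rose and 35.9% fell. With the covariate, where 2.65% of all rose and 5.07% fell, 1 smooth muscle marker passed in limma and none of the other 3 lists had a member that did, while 2 fibroblast, 4 mesothelial and 0 endothelial markers had an unadjusted p below 0.05. The mean fibroblast marker level was 11.49 to 11.88 log2 units per array after 1500 ng, against 10.84 to 11.49 after buffer. Beside the same 24.8% of all genes, 2 of 4 neutrophil markers rose, and of 6 macrophage and monocyte markers 1 rose, and with the covariate none of either passed (0 and 2 at an unadjusted p below 0.05). Both fat markers measured rose, and with the covariate neither passed. Their part in the Tnfaip6 difference was not tested.

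Likeness to Tnfaip6 was measured by Pearson's r and is given as a description, since the points share arrays and their RNA quality. Over the 20 group means the genes most like it were Il33, an epithelial and stromal alarmin (r = 0.96), Aldh1a3, which makes retinoic acid (0.96), Nme7 (0.95), the arginine transporter gene Slc7a2 (0.95), Yipf5 (0.95) and Cish, a STAT5-induced inhibitor of cytokine signalling (0.95). In all, 36 of 12790 named genes exceeded 0.9. With the covariate taken out, the leading genes were Ppargc1a (0.95), Il33 (0.95), Aldh1a3 (0.95), Cish (0.95), Slc7a2 (0.94) and Il13 (0.94), the type 2 cytokine gene.

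Deviations of single animals from their group means remove the group pattern. Over all arrays Vcan was the most like Tnfaip6 of all genes (r = 0.75, rho = 0.72), followed by Aldh1a3 (0.74), Gclc (0.70), which makes glutathione, Il33 (0.69), Rrs1 (0.67) and Nudcd1 (0.67). Within single groups the correlation with Vcan lay between 0.02, in OVA 150 ng at 24 h, and 0.97, in OVA 500 ng at 24 h. Among hyaluronan genes Tlr4 (0.61), Cd44 (0.60), Uap1 (0.58) and Has2 (0.55) followed Vcan. Uap1 makes the sugar nucleotide used for hyaluronan. Over the group means r was 0.92 for Vcan and 0.94 for Has2.

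Set beside Tnfaip6, which differed from buffer by 1.84 log2 units after 1500 ng in OVA-sensitized mice at 6 h, Aldh1a3 differed by 3.35, Il13 by 1.69, Cish by 0.86 and Il33 by 0.76. At 24 h the same contrast gave 0.23 for Tnfaip6, 1.09 for Aldh1a3, 1.24 for Il13, 0.61 for Cish and 0.29 for Il33. In naive mice at 6 h it gave 0.06 for Tnfaip6, 0.32 for Aldh1a3, 0.24 for Il13, -0.01 for Cish and -0.06 for Il33. These genes were picked for their likeness, so no test is given.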

How the data were processed

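Whole lungs gave total RNA by the mirVana kit, and 3′IVT Express was used for labelling, as the labels' protocols state. The authors deposited log2 values made with RMA, per the submitters' processing notes, with no version given in the sources used here. RMA subtracts background, brings arrays to a common distribution and combines the probes of a set. Without counts or detection calls, precision rests on the number of arrays and their spread.

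Of 26166 probe sets, 22892 name 1 gene, 260 name several and 3014 are unnamed here, by the platform annotation. A gene was read by its probe set with the highest mean, giving 13494 genes. limma 3.58.1 in R 4.3.3 fitted 1 mean per group over all arrays, with Benjamini-Hochberg adjustment over all genes at 0.05, two-sided. A second fit added the beta-actin 3′ minus 5′ difference, and the report calls that the covariate. Of 46 Tnfaip6 contrasts 34 were tested, and 12 that contain OVA 1500 ng or OVA buffer at 6 h, the groups that chose the gene, were described only. The contrasts with that buffer group had been planned as tests, and OVA 500 ng was tested against saline in their place after the data were seen. Beta-actin was compared by exact two-sided permutation tests. An array counted as having gullet keratins where both Krt4 and Krt13 exceeded the median of all arrays by over 2 log2 units.

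Named genes were Tnfaip6, Has1, Has2, Has3, Cd44, Vcan and Ptx3, other hyaluronan genes past the threshold in OVA mice at 6 h with and without the covariate or at 24 h, TNF, IL1 and cumulus genes past it both ways at 6 h, and the 6 genes most like Tnfaip6 by each measure. Tnf, Hapln3 and Uap1, and the values of list members in other comparisons, were added after their values were seen. The gene and the lists were chosen with earlier results of these data known, and the motifs after the promoter was seen. Promoter windows and starts are from RefSeq. The code was tested on simulated data. Alternatives were other normalization, probe set summaries, priors, array weights, a replicate block and the compared groups alone. Others were saline in place of buffer, leaving out gullet arrays and leaving out single arrays. Those chosen after seeing the data include leaving out single arrays for OVA 500 ng at 6 h and for the sensitization and time comparisons, and likeness of deviations after the covariate.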

Additional observations from a re-analysis of the deposited data

Results flagged for a closer look

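In each of the 20 groups, the highest and lowest arrays were compared with their nearest neighbour by Dixon's criterion, for the Tnfaip6 level and for the beta-actin difference. Chance flags about 1 in 20 groups, and 3 arrays stood apart for each measure. For Tnfaip6 these were replicate 1 of naive 1500 ng at 6 h at 7.002 log2 units (nearest array 6.15), replicate 4 of OVA saline at 6 h at 7.52 (nearest 6.51) and replicate 8 of naive 150 ng at 24 h at 6.62 (nearest 5.996). For beta-actin they were replicate 3 of naive saline at 24 h at 1.91 (nearest 1.47), replicate 5 of OVA saline at 24 h at 1.64 (nearest 1.32) and replicate 3 of OVA 150 ng at 24 h at 1.94 (nearest 1.48). Each was the highest of its group, and none is an array with gullet keratins.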

How the results depend on the processing

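The 5 sensitization differences of Tnfaip6 at 24 h passed the test under every alternative run over all the arrays of their groups, and the exceptions among the other contrasts were these. With the beta-actin covariate the 24 h minus 6 h differences became 0.27 in OVA saline mice, which no longer passed, and 0.52 in OVA buffer mice, and values near 0 changed sign: naive 1500 ng minus buffer at 6 h to -0.044, naive buffer 24 h minus 6 h to -0.019, OVA 500 ng 24 h minus 6 h to -0.058 and the naive slope at 24 h to 0.029. With the covariate and without gullet arrays these were 0.21, 0.46, -0.026, -0.075, -0.079 and 0.040, and naive 1500 ng minus buffer at 24 h turned to 0.028, naive buffer minus saline at 24 h to -0.037 and naive saline 24 h minus 6 h to -0.012. Leaving out gullet arrays alone turned naive buffer minus saline at 24 h to -0.00417, and moved the beta-actin differences of OVA 150 ng at 6 h (-0.30, adjusted p = 0.0539, exact permutation test) and naive 1500 ng at 24 h (0.33, adjusted p = 0.0669, exact permutation test) to the other side of the threshold. Quantile normalization brought OVA saline 24 h minus 6 h to a miss (0.50). Array weights gave 0.41 for OVA saline 24 h minus 6 h, a miss, and turned naive 1500 ng 24 h minus 6 h to 0.033, OVA 500 ng 24 h minus 6 h to -0.17 and the naive slope at 24 h to 0.12. The replicate block on animal numbers moved OVA saline 24 h minus 6 h to a miss (0.50, adjusted p = 0.0523) and the naive slope at 24 h to 0.017, and changed no other call; 31 of 81 same-numbered pairs correlated above 0.1, so the numbers were not taken as pairs. The compared groups alone gave a miss for OVA minus naive saline at 6 h (0.65, limma adjusted p = 0.0636). The mean of probe sets gave one for OVA saline 24 h minus 6 h (0.50). Saline in place of buffer gave a pass for naive 500 ng at 6 h (0.53). With the covariate the hyaluronan genes that rose numbered 1 for naive and 4 for OVA mice at 6 h and 2 for OVA mice at 24 h, and 1 fell in OVA mice at 6 h. Of all genes 2.46%, 2.65% and 17.2% rose in those comparisons, and 5.07% fell in OVA mice at 6 h. The cause of these shifts was not tested. Leaving out each of 99 arrays in turn gave, for 1500 ng minus buffer, 1.72 to 1.96 in OVA and -0.093 to 0.16 in naive mice at 6 h, and 0.14 to 0.36 in OVA and -0.19 to -0.017 in naive mice at 24 h. It gave 1.16 to 1.42 for OVA 500 ng minus buffer at 6 h, and 0.84 to 1.12 for OVA 500 ng minus saline at 6 h, called in 16 of 16 fits. That saline comparison also passed with the covariate, quantile normalization, array weights, the replicate block and without gullet arrays. For OVA minus naive it gave 0.50 to 0.77 after saline and 0.042 to 0.29 after buffer at 6 h, and 0.83 to 0.96 after saline, 0.67 to 0.90 after buffer and 1.05 to 1.22 after 1500 ng at 24 h. For 24 h minus 6 h it gave 0.42 to 0.65 in OVA saline mice, called in 3 of 15 fits, and 0.63 to 0.86 in OVA buffer mice. Dropping the 40% of genes with the lowest means removes Tnfaip6 (mean 6.56, bound 9.20 log2 units), so its contrasts were not run under it. A trended prior and testing every probe set changed no call.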
